A study of Mus musculus with 48 samples.

Results

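Mouse bone marrow cells grown with the cytokine Flt3L, which the labels call pDC, were followed through the first 6 hours after lipopolysaccharide (LPS). The time course is 5 libraries of the 48 in the series, chosen by their labels: an untreated culture and cultures given LPS at 100 ng/ml for 1, 2, 4 or 6 h. All come from femur and tibia marrow of female C57BL/6J mice aged 6 to 10 weeks, and each condition is 1 library. Nothing in the sources used here says how many mice went into a culture. For comparison the same cells were given PAM3CSK (PAM, 100 ng/ml) or CpG B (5 µM) for the same hours, or CpG A (5 µM) for 1, 4 or 6 h. GM-CSF-grown cells, which the labels call moDC, were given the same dose of LPS or left untreated. They also received the other 3 ligands, and all 32 libraries of both cultures entered the tests. Libraries of pDC, CD8+ DC and double-negative (DN) DC sorted from spleen, 1 library each, served as a reference for cell type. The sorts used mPDCA for pDC and CD11b, CD11c, CD43, CD4 and CD8 for the others, and the strain labels of these 3 samples read C57BL/12, C57BL/14 and C57BL/16.

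LPS is a component of the outer membrane of Gram-negative bacteria and binds the receptor Tlr4 with its partner Ly96 (MD-2) and the coreceptor Cd14. The receptor signals through the adaptor Myd88, which drives NF-kB and the early inflammatory genes, and through Ticam1 (TRIF), which drives Ifnb1 and with it the interferon-stimulated genes. PAM, a lipopeptide, is sensed by Tlr2 and uses Myd88, and CpG B DNA is sensed by Tlr9. Plasmacytoid dendritic cells are known for Tlr7 and Tlr9 and for little or no Tlr4, whereas a Flt3L culture of marrow that has not been sorted holds plasmacytoid cells together with conventional dendritic cells of both kinds (cDC1 and cDC2).

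The 5 libraries held 377460 to 530187 counts, within the 255062 to 748152 of all 32 stimulation libraries. In them a single count stood for 1.886 to 2.649 CPM, a level scaled to the library's total, and an absent gene could still have reached 5.658 to 7.948 CPM, the level of 3 counts. Levels below are CPM after TMM scaling, a correction for libraries whose most abundant genes take a different share of the counts. The 100 most abundant genes took 26.26% of the counts in the untreated library, 27.14% and 27.26% at 1 and 2 h, and 32.61% and 32.73% at 4 and 6 h. Ribosomal protein genes took 3.715%, 3.741%, 3.424%, 2.534% and 2.273% in the same order. Olfactory receptor genes, which these cells are not known to use, summed to 1249 to 1841 CPM in the 5 libraries and to 570.4 to 3811 CPM in the other 11 pDC libraries. That background is spread over 1108 genes.

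The untreated culture carried markers of plasmacytoid cells beside those of other dendritic cells. Siglech, a surface lectin of plasmacytoid cells, stood at 349.6 CPM against 2.379 CPM in untreated moDC. Its level in sorted splenic pDC was 2655 CPM, in a table that was scaled separately. Tlr9 stood at 80.02 CPM in the culture, 11.89 CPM in untreated moDC and 667.4 CPM in sorted pDC. Both plasmacytoid genes were thus far above moDC and below the sorted cells, across tables that cannot be compared in exact size. Xcr1 and Clec9a, which mark cDC1, stood at 33.69 and 63.18 CPM, and Sirpa and Csf1r, of cDC2 and monocytes, at 789.7 and 435.9 CPM. In sorted pDC Xcr1, Clec9a, Sirpa and Csf1r stood at 1.752, 228.3, 210.8 and 100.7 CPM, so Clec9a and Sirpa were not absent from plasmacytoid cells. In sorted CD8+ DC Xcr1 and Clec9a stood at 615.9 and 640.9 CPM. Sirpa and Csf1r stood at 367.8 and 644.8 CPM in sorted DN DC and at 858.8 and 804.1 CPM in untreated moDC. Cst3, an abundant protease inhibitor of dendritic cells, stood at 8918 CPM. The label pDC thus stands for the whole culture in what follows. The T cell gene Cd3e was at 2.106 CPM, under the level of 3 counts. In such a bulk library fewer cells of a type and less RNA per cell cannot be told apart.

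The receptor for LPS itself was at the edge of detection. Tlr4 had 3 counts in the untreated library, then 3, 2, 1 and 1 at 1, 2, 4 and 6 h, or 6.32, 4.71, 3.76, 2.68 and 2.79 CPM. The other 11 pDC libraries held 2.295 to 12.94 CPM, whereas untreated moDC held 102.3 CPM. These levels are at or near 3 counts in every library of the course, so no direction over time is read from them. The partner Ly96 stood at 10.53 CPM untreated, 15.7 at 1 h, 16.9 at 2 h, 50.9 at 4 h and 55.7 at 6 h. Cd14 was measurable throughout, at 37.9 CPM untreated and 152, 107, 139 and 120 CPM over the 4 hours. Both were higher at 4 and 6 h than in the untreated library, Cd14 already at 1 h. Ly96 rose by 1.70 ± 0.47 on the log2 scale from 1 and 2 h to 4 and 6 h (edgeR, adjusted p = 0.014), a call lost with column totals and without any 1 of the 4 LPS libraries. Of 25 receptor and adaptor genes tested, 2 were at least 4-fold higher than untreated at 4 h and 1 at 6 h. These counts are close to the shares of all genes tested, 4.28% at 4 h and 3.67% at 6 h. The genes that passed were the adaptor Myd88, at 82.1 CPM untreated and 130, 175, 413 and 220 CPM over the hours, and Ikbke. Ikbke, a kinase that activates interferon regulatory factors, stood at 10.53 CPM untreated and 12.6, 33.8, 177 and 153 CPM. Ticam1 had 61.1 CPM untreated and 56.5, 77.0, 107 and 112 CPM, and was not called (adjusted p = 0.215).

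Counted hour by hour, the response had a small early stage and a large late one. A gene was counted as higher or lower at an hour if its level, with 10 CPM added to both sides, differed at least 4-fold from the untreated library. This is a description with no test, since each hour is 1 library, and 8056 genes were high enough to enter. The filter ran over all 32 stimulation libraries, so a gene could enter through libraries in which it was induced. At 1 h 53 genes were higher, 0.658% of those tested, and 0 were lower (0%). At 2 h the counts were 58 higher (0.72%) and 0 lower (0%). They became 345 higher (4.28%) and 77 lower (0.956%) at 4 h, and 296 higher (3.67%) and 84 lower (1.04%) at 6 h. With column totals in place of TMM the lower counts were 221 at 4 h and 185 at 6 h. The median log2 ratio of all genes lay between −0.022 and −0.007 at the 4 hours. In all 408 genes were higher at some hour and 125 lower at some hour, and 0 were both.

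**Figure D1:**
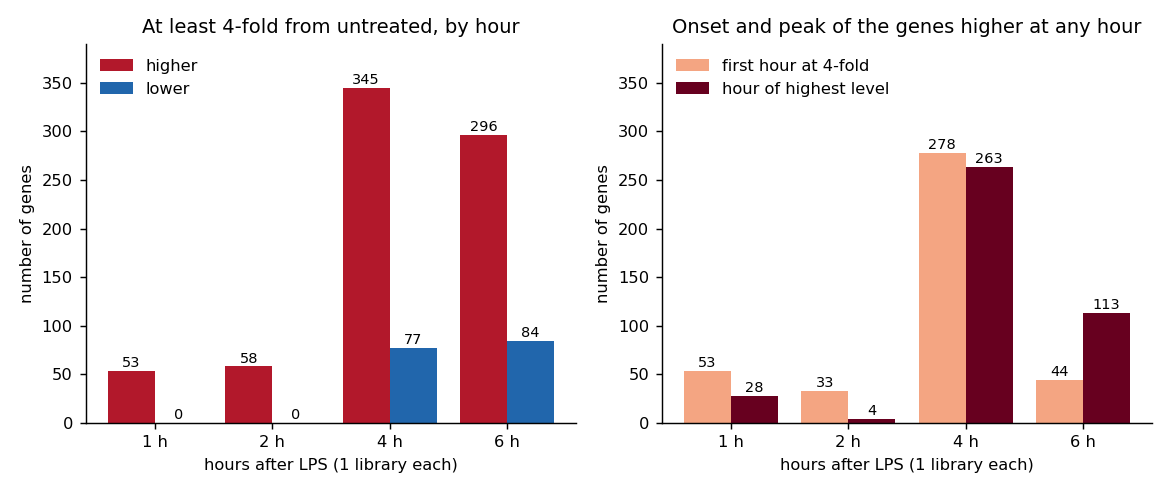
Left, number of genes (bars) at least 4-fold higher or lower than the untreated library at 1, 2, 4 and 6 h of LPS. Right, hour at which the 408 higher genes first passed 4-fold and hour of their highest level: 278 first passed it at 4 h and 263 were highest there, and no gene was lower before 4 h. With column totals in place of TMM, 160 genes were highest at 4 h.

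The genes that were higher differed in when they first passed the fold and when they were highest. Of the 408 genes, 53 first passed it at 1 h, 33 at 2 h, 278 at 4 h and 44 at 6 h. The highest level fell at 1 h for 28 genes, at 2 h for 4, at 4 h for 263 and at 6 h for 113. With column totals in place of TMM, 160 genes were highest at 4 h. The 4 genes highest at 2 h were Irf1, Socs1, Cd69 and Tagap, of which Tagap was named after its values were seen. Of the 263 genes highest at 4 h, 215 were at 6 h still within 2-fold of that level, and 8 were back under 2-fold. Of the 28 highest at 1 h, 9 stayed within 2-fold of it and 13 were under 2-fold over untreated at 6 h.

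The 1 h library was marked by immediate early genes, which are transcribed from factors already in the cell. Of 32 such genes tested, 16 were at least 4-fold higher at 1 h, 2 at 2 h, 9 at 4 h and 9 at 6 h. Among all genes the shares were 0.658%, 0.72%, 4.28% and 3.67%. The median log2 ratios of the 32 were 2.07, 0.88, 1.25 and 0.83. With column totals in place of TMM 17, 2, 5 and 6 were higher, and 2 were lower at 4 h and 1 at 6 h. The medians were then 2.10, 0.84, 0.88 and 0.48. Egr1, a zinc finger transcription factor, stood at 12.6 CPM untreated, 740 CPM at 1 h, 24.4 at 2 h, 8.04 at 4 h and 5.57 at 6 h. The 1 h library alone was high. Its ratio of counts at 1 h was 58.6 (exact binomial 95% interval 26.7 to 160.5, which like all intervals here covers counting error only). Nr4a1, a nuclear receptor of the same group, stood at 31.6 CPM untreated, 502 at 1 h, then 75.2, 50.9 and 41.8 CPM. Ier2, named after its values were seen, stood at 46.3 CPM untreated and 562, 73.3, 37.5 and 50.2 CPM. A test in edgeR of the 4 and 6 h libraries against the 1 and 2 h libraries called 8.66% of all genes higher and 5.31% lower. In it Egr1 fell by 5.76 ± 1.79 on the log2 scale (SE, adjusted p = 0.0293) and Nr4a1 fell by 2.64 ± 0.70 (adjusted p = 0.0106). Both calls were lost without the 1 h library, and also without the 4 h or the 6 h library. Among the 32 genes 5 fell and 3 rose in that test, and without the 1 h library 0 fell, while 9 fell with the hour as a block, a fit with added terms for 1 against 2 h and for 4 against 6 h shared by all cultures and ligands.

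Several feedback inhibitors and cytokine genes of the NF-kB pathway were also high at 1 h and stayed above the untreated level at each later hour. At 1 h 5 of 23 NF-kB subunit and feedback genes were at least 4-fold higher, beside 0.658% of all genes tested. The stretches before the starts of Nfkbia and Tnfaip3, genes of this group, are shown as examples. Each is the 250 bases before the start of the gene, from RefSeq on GRCm38.p6, minus strand, in the direction of transcription. Capitals mark matches on either strand to a kappa B motif (10 bases, bound by NF-kB), to AP-1 (TGANTCA) and to an IRF-type motif (GAAANNGAA, where N is any base).
Nfkbia, chr12:55492648-55492897: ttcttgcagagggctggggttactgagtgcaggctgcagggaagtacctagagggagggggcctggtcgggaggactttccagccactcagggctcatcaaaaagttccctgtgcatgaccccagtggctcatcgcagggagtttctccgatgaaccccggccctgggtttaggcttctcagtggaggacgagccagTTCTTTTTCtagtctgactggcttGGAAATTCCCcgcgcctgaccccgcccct
Tnfaip3, chr10:19015411-19015660: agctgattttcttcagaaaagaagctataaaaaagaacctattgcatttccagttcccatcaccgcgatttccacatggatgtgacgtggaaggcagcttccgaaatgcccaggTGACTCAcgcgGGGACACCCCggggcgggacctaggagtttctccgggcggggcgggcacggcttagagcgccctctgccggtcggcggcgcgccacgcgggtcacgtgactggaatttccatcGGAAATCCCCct
In Nfkbia the IRF-type match begins 53 bases before the start and the kappa B match 29. In Tnfaip3 the AP-1 match begins at 136 bases and kappa B matches at 125 and 12. A match is a run of letters and not a measured site, and a link between these matches and the hours of the genes was not tested.

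Nfkbia, the inhibitor that holds NF-kB in the cytoplasm, stood at 293 CPM untreated and at 2520, 1400, 2753 and 2173 CPM over the 4 hours. Tnfaip3 (A20), an enzyme that ends NF-kB signalling, stood at 10.53 CPM untreated and at 295, 122, 223 and 142 CPM. In both, every LPS library was above the untreated one and the 2 h library was the lowest of the 4. Tnf, the cytokine, had 92.7 CPM untreated and 3524, 1372, 2919 and 1633 CPM. Dusp2, a phosphatase of MAP kinases, had 54.8 CPM and 1041, 393, 1077 and 945 CPM. Socs3, an inhibitor of cytokine receptors, had 23.2 CPM and 433, 310, 493 and 343 CPM. These 5 genes, with Junb and Cdkn1a, were the 7 that edgeR called higher in the 1 and 2 h libraries against the untreated one (0.0869% of genes), and 0 were called lower (0%). The lone untreated library is assumed to vary like the others in this test. Tnf was higher by 4.72 ± 0.83 on the log2 scale (adjusted p = 0.0125), Nfkbia by 2.74 (adjusted p = 0.000856) and Dusp2 by 3.71 (adjusted p = 0.000175). DESeq2 called 40 genes, edgeR with the hour as a block 58 and edgeR without the 2 h library 16. Without the 1 h library the calls for Tnf, Tnfaip3, Junb and Cdkn1a were lost, that of Junb also without the 4 or the 6 h library.

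The dip at 2 h was a common feature of the genes that were high at 1 h. Of the 53 genes, 34 (64.15%) had a level at 2 h below both 1 h and 4 h, against 26.49% of all genes tested. That they were chosen at 1 h favours a 1 h level above that at 2 h, so genes of the other courses were chosen in the same way, at least 4-fold higher at 1 h of their own course over untreated cells. With column totals in place of TMM the count was 28 (52.83%). Of the genes so chosen, the pattern was seen in 2 of 27 (7.407%) after PAM, 10 of 75 (13.33%) after CpG B and 4 of 45 (8.889%) in moDC after LPS. The shares are a description with no test, and the 3 pDC courses share the untreated library. At 2 h, 6 of the 53 were at least 2-fold under both neighbours (11.32%), or 4 (7.547%) with column totals. The share of all genes was 0.993%, but the choice at 1 h favours the 53 here too. Of the genes chosen in the same way, 0 of 27 did so after PAM, 2 of 75 (2.667%) after CpG B and 0 of 45 in moDC after LPS. Il1b, the inflammatory cytokine, showed the dip, with 90.6 CPM untreated and 1865, 742, 3157 and 2984 CPM. Cxcl2, a neutrophil chemokine, had 50.5 CPM and 855, 359, 686 and 605 CPM, below both neighbours at 2 h but less than 2-fold below 4 h. The 2 h point is 1 library, and its part in the pattern was not tested.

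**Figure D2:**
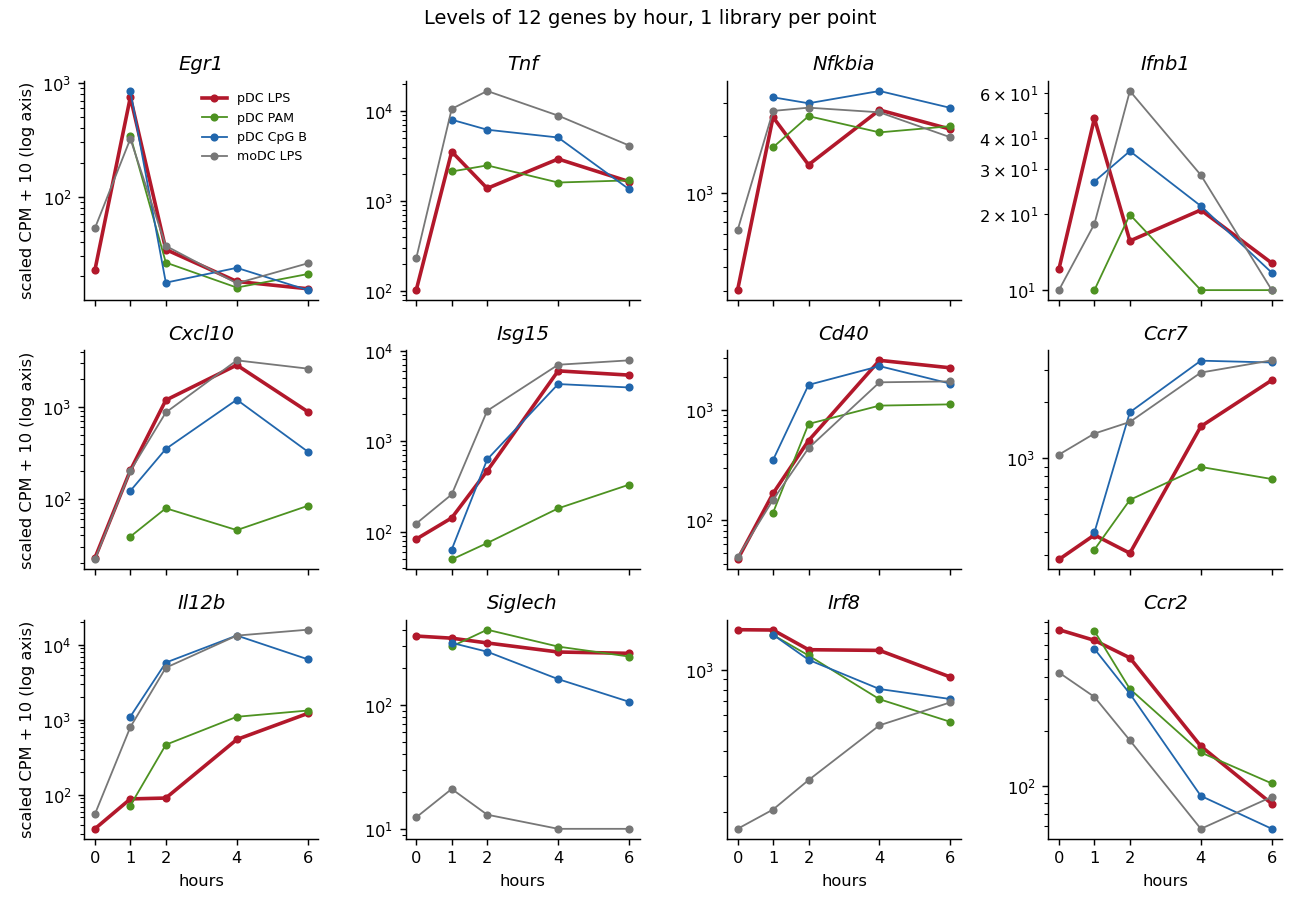
Scaled CPM + 10 (log axis) of 12 genes against hours, 1 point a library, for pDC after LPS (thick line), PAM and CpG B and for moDC after LPS, with hour 0 the untreated library. After LPS in pDC Egr1 stood out at 1 h alone (740 CPM), Nfkbia and Tnf were high at 1 h and lower at 2 h, and Isg15 was high from 4 h (5961 CPM).

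Interferon genes themselves had few counts at all hours. Ifnb1 had 1 count untreated, 24 at 1 h, 3 at 2 h, 4 at 4 h and 1 at 6 h, or 2.11, 37.6, 5.64, 10.7 and 2.79 CPM. The 1 h library was the highest, with a ratio of counts of 17.9 (95% interval 2.92 to 735.1). Summed over the 20 type I and III interferon genes of the list, the level was 21.06 CPM untreated and 64.31, 28.18, 53.61 and 52.94 CPM. Of these 20 genes 1 passed the filter on low counts. Reads of near-identical copies among them may have been split or dropped, so their true levels are uncertain. After PAM, Ifnb1 had no count at 1, 4 and 6 h and 9.866 CPM at 2 h. After CpG B it had 16.83, 25.37, 11.48 and 1.714 CPM.

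Interferon-stimulated genes were near their untreated levels at 1 h and high at 4 and 6 h. Of the 64 tested, 1 was at least 4-fold higher at 1 h, 15 at 2 h, 55 at 4 h and 51 at 6 h. Their median log2 ratios were 0.01, 1.23, 3.66 and 3.01. Among all genes 0.658%, 0.72%, 4.28% and 3.67% were higher at these hours. Their summed level was 6528 CPM untreated, 6893 at 1 h, 14130 at 2 h, 58430 at 4 h and 40110 at 6 h. The promoters of Cxcl10 and Isg15, both highest at 4 h, are printed in the same way (RefSeq, GRCm38.p6, minus strand, 250 bases) as examples. A link between their matches and their hours was not tested.
Cxcl10, chr5:92348890-92349139: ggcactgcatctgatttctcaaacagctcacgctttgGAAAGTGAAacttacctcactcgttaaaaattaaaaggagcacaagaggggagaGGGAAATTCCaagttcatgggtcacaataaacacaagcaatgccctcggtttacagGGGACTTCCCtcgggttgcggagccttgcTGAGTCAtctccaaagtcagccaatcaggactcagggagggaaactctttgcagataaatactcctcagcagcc
Isg15, chr4:156200819-156201068: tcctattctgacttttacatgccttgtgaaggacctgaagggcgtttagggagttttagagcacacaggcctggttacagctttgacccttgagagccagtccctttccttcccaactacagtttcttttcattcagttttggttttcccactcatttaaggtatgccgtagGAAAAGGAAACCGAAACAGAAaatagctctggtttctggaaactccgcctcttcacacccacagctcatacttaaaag
Cxcl10 holds an IRF-type match 213 bases before the start, kappa B matches at 159 and 103 and an AP-1 match at 74. Isg15 holds 3 overlapping IRF-type matches, at 78, 72 and 66 bases, and no match to the other motifs in this window.

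Cxcl10, a chemokine for activated T cells, stood at 12.6 CPM untreated and 195, 1178, 2855 and 881 CPM over the 4 hours. Isg15, a ubiquitin-like protein, stood at 73.7 CPM untreated and 133, 462, 5961 and 5353 CPM. Cxcl10 was above the untreated library from 1 h and Isg15 mainly from 2 h, and at 6 h Cxcl10 was well below its 4 h level while Isg15 was near it. At 4 h the ratio of counts was 225.9 for Cxcl10 (95% interval 103.5 to 617) and 80.9 for Isg15 (58.0 to 116.4). Irf7, the factor that amplifies interferon transcription, had 69.5 CPM untreated and 65.9, 252, 2436 and 2210 CPM. It was near the untreated level at 1 h. Mx1, a GTPase that blocks influenza virus, was already at 588 CPM at 2 h, from 27.4 CPM untreated and 48.6 CPM at 1 h, and reached 1458 CPM at 4 h. Rsad2 (viperin), an antiviral enzyme, had 10.53 CPM untreated and 18.8, 229, 1579 and 568 CPM. Herc6, which attaches Isg15 to proteins in mice, had 6.32 CPM untreated and 6.27, 7.52, 236 and 195 CPM, with no difference before 4 h. Socs1, an inhibitor of interferon signalling, was highest at 2 h, with 23.2 CPM untreated and 31.4, 549, 399 and 237 CPM.

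Most of this group passed the test of 4 and 6 h against 1 and 2 h, which leaves the untreated library out. It called 698 of all genes higher (8.66%) and 428 lower (5.31%), and among the 64 interferon-stimulated genes 54 rose and 0 fell. Irf7 rose by 3.88 ± 0.67 on the log2 scale (adjusted p = 0.000364, edgeR) and Zbp1, a sensor of Z-form nucleic acid, by 4.31 ± 0.59 (adjusted p = 6.31e-05). Isg15 rose by 4.25 ± 0.91 (adjusted p = 0.00219), a call lost without the 1 h library. Ifngr1, the receptor of interferon gamma, fell by 1.93 (adjusted p = 0.00237), from 274 CPM untreated and 254 and 132 CPM at 1 and 2 h to 48.3 and 52.9 CPM. That call too was lost without the 1 h library. With column totals in place of TMM, which moved the median of all genes by −0.40, the counts were 432 higher and 976 lower, with 52 of the 64 genes higher. Without the 1 h library 240 genes were higher and 157 lower, with 26 of the 64 rising. Without the 4 h library the counts were 402 and 188, with 36 of the 64. No condition has a replicate library, so these p-values measure the spread between hours of a phase and not between cultures.

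**Figure D3:**
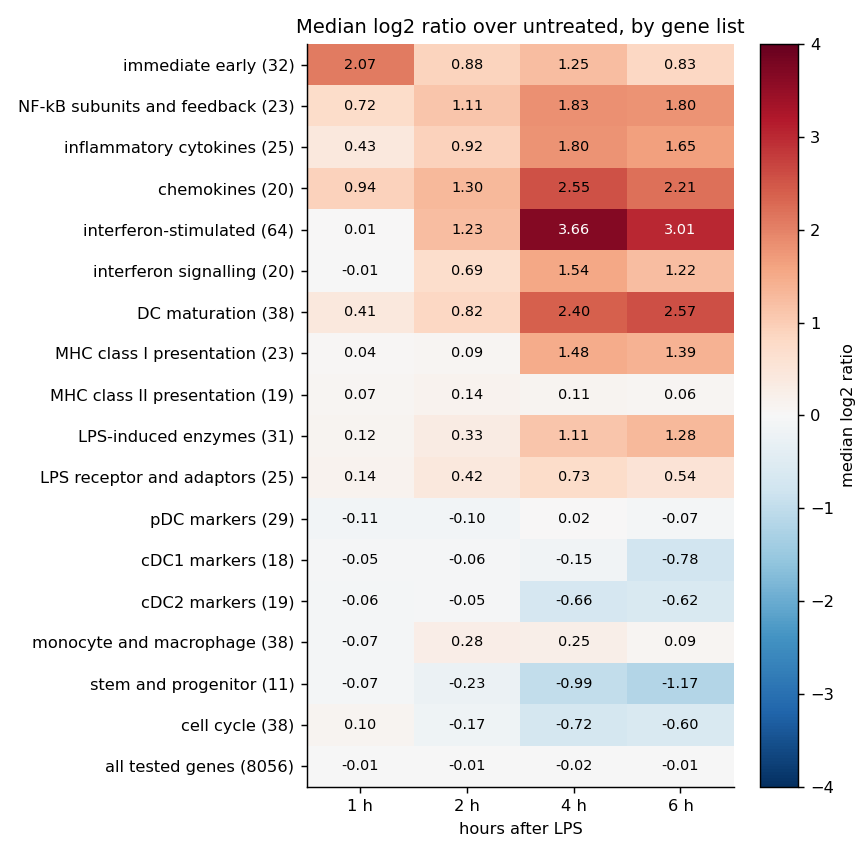
Median log2 ratio over the untreated library (number and colour, red higher, blue lower) of the tested members of each gene list (rows, number of genes in brackets) at each hour of LPS. Immediate early genes had a median of 2.07 at 1 h, and interferon-stimulated genes passed from 0.01 at 1 h to 3.66 at 4 h.

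Cytokine genes split by time. Of 33 listed inflammatory cytokine genes 25 passed the filter on low counts. Of these 25, 4 were at least 4-fold higher at 1 h, 2 at 2 h and 12 at each later hour. Among all genes the shares were 0.658%, 0.72%, 4.28% and 3.67%. From early to late 8 of the 25 rose and 0 fell, beside the 8.66% of all genes that rose. Without the 1 h library 4 of the 25 rose. Il6 stood at 2.11 CPM untreated and 3.14, 16.9, 147 and 134 CPM, and rose by 3.84 ± 0.89 on the log2 scale (edgeR, adjusted p = 0.00409, lost without the 1 h library). Il12b, the p40 chain of interleukins 12 and 23, stood at 25.3 CPM untreated and 78.4, 80.8, 539 and 1212 CPM. It was still climbing at 6 h, where the ratio of counts was 48.0 (95% interval 27.2 to 93.6). The rise of Il12b from early to late was 3.45 ± 0.98 (adjusted p = 0.017) and was lost without the 1, 2 or 6 h library. Il27, which acts on T cells, was at 0 counts untreated and then at 3.14, 22.6, 281 and 139 CPM. Il15, a growth factor of NK and memory T cells, had 8.42 CPM untreated and 18.8, 31.9, 287 and 170 CPM. Il10, which restrains inflammation, stayed near the floor with 3, 7, 1, 3 and 8 counts.

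Chemokine genes were among the most abundant of the late stage. Of 20 tested, 5 were at least 4-fold higher at 1 h, 7 at 2 h, 12 at 4 h and 10 at 6 h. Among all genes the shares were 0.658%, 0.72%, 4.28% and 3.67%. From early to late 6 of the 20 rose, beside 8.66% of all genes. Without the 1 h library 2 rose and without the 4 h library 4. Ccl5 (RANTES), which draws T cells and monocytes, stood at 476 CPM untreated and 722, 1409, 11950 and 13950 CPM. Ccl22, a ligand of Ccr4 made by mature dendritic cells, stood at 280 CPM untreated and 706, 1298, 10860 and 12220 CPM. Both climbed at each hour sampled, and neither had turned by 6 h. Ccl5 rose by 3.60 ± 0.61 on the log2 scale from early to late (edgeR, adjusted p = 0.00035) and Ccl22 by 3.53 ± 0.62 (adjusted p = 0.000449). Ccl4 and Ccl3, which draw monocytes and T cells, came earlier. Ccl4 had 65.3 CPM untreated and 1223, 1541, 3919 and 1254 CPM, and Ccl3 had 56.9 CPM and 384, 474, 1981 and 1176 CPM. Both were highest at 4 h and lower at 6 h. Cxcl9, induced by interferon, had 8.42 CPM and 29.8, 440, 2160 and 688 CPM.

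Genes of dendritic cell maturation came late and stayed. Among all genes 4.28% were at least 4-fold higher at 4 h and 3.67% at 6 h, and 8.66% rose from early to late. Of 38 maturation genes tested, 3 were at least 4-fold higher at 1 h, 6 at 2 h, 23 at 4 h and 26 at 6 h, with medians of 2.40 and 2.57 at the last hours. From early to late 29 rose and 0 fell, 21 with column totals, 8 without the 1 h library, 19 without the 4 h library and 15 without the 6 h library. Cd40, the receptor for T cell help, stood at 33.7 CPM untreated and 165, 519, 2838 and 2424 CPM. Ccr7, the receptor that takes dendritic cells to lymph nodes, stood at 274 CPM untreated and 375, 297, 1474 and 2628 CPM. Cd40 was up from 1 h, whereas Ccr7 stayed near its untreated level until after 2 h. Ccr7 rose from early to late by 2.61 ± 0.46 (edgeR, adjusted p = 0.000449), and Cd40 by 2.95 ± 0.76 (adjusted p = 0.00909, lost without the 1 h library). Fscn1, an actin-bundling protein of mature dendritic cells named after its values were seen, had 263 CPM untreated and 314, 366, 1908 and 3405 CPM, and rose by 2.97 ± 0.45 (adjusted p = 0.000124). Il4i1, an amino acid oxidase, had 131 CPM untreated and 254, 521, 3267 and 3837 CPM.

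Genes of the 2 pathways of antigen presentation were counted separately. Of 23 MHC class I genes 7 were at least 4-fold higher at 4 h and 3 at 6 h, and 13 rose and 0 fell from early to late. Among all genes 4.28% were higher at 4 h and 3.67% at 6 h, and 8.66% rose and 5.31% fell. Nlrc5, the transactivator of class I genes, had 40 CPM untreated and 53.3, 43.2, 662 and 404 CPM, and rose by 3.45 ± 0.43 on the log2 scale (edgeR, adjusted p = 3.74e-05). B2m, the light chain of class I named after its values were seen, had 661 CPM untreated and 642, 737, 1857 and 2012 CPM. Of 19 class II genes 0 were 4-fold higher or lower at any hour. With column totals in place of TMM 1 class II gene was 4-fold lower at 4 h and 2 at 6 h, and 3 class I genes were higher at 4 h and 3 at 6 h. From early to late 0 of the 19 class II genes rose and 2 fell, beside the 5.31% of all genes that fell. The pair that fell were H2-DMa and H2-DMb1, which load peptides onto class II molecules. H2-DMa had 863 CPM untreated and 908, 785, 472 and 276 CPM, and fell by 1.18 ± 0.27 (adjusted p = 0.00408, lost without the 1 or the 6 h library). H2-DMb1 had 899 CPM and 1035, 994, 528 and 293 CPM, and fell by 1.30 ± 0.31 (adjusted p = 0.0045, lost without the 6 h library). The class II chain H2-Aa, named after its values were seen, had 4721 CPM and 4962, 6437, 7725 and 5459 CPM, a change of 0.21 that was not called (adjusted p = 0.666).

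Enzymes, survival genes and some genes outside the main groups were also late. Of 31 LPS-induced enzyme genes 16 rose and 0 fell from early to late, and of 30 apoptosis and survival genes 14 rose and 0 fell, beside 8.66% of all genes that rose. Without the 1 h library 3 enzyme and 6 apoptosis genes rose, without the 4 h library 6 and 7, and without the 6 h library 10 enzyme genes rose and 1 fell. Irg1, which makes itaconate, stood at 12.6 CPM untreated and 124, 201, 952 and 725 CPM. Bcl2a1b, an inhibitor of cell death with near-identical copies among which reads may have been split, had 56.9 CPM and 127, 246, 1061 and 1050 CPM. Saa3, an acute phase protein, had 2.11 CPM untreated and 3.14, 7.52, 193 and 644 CPM, and was the highest at 6 h. Kdr, a receptor of vascular growth factors, had 2.11 CPM and 6.27, 7.52, 255 and 265 CPM, a rise of 5.19 ± 0.61 on the log2 scale (edgeR, adjusted p = 3.74e-05). Hdc, which makes histamine, had 10.53 CPM and 1.57, 15.0, 209 and 206 CPM, a rise of 4.68 ± 0.59 (adjusted p = 3.74e-05). Hspa1a, an inducible heat shock protein, was high at 6 h alone, with 2.11 CPM untreated and 9.41, 3.76, 32.2 and 279 CPM. Its rise of 4.45 ± 0.97 (adjusted p = 0.00258) was lost without the 6 h library.

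Genes at least 4-fold lower appeared from 4 h on, while 67 and 120 genes were at least 2-fold lower at 1 and 2 h. With column totals 1 gene was 4-fold lower at 1 h and 321 were at some hour. Of the 125 genes lower at some hour, 77 first passed the fold at 4 h and 48 at 6 h, and 58 were lowest at 4 h and 67 at 6 h. Cd34, a surface protein of progenitors, stood at 211 CPM untreated, 168 at 1 h, 179 at 2 h, 32.2 at 4 h and 5.57 at 6 h. Ccr2, the receptor for monocyte chemokines, stood at 716 CPM and 624, 498, 156 and 69.7 CPM. Alox5ap, which activates leukotriene synthesis, had 638 CPM and 703, 628, 177 and 52.9 CPM. All 3 were close to the untreated level at 1 h and lower at 6 h than at 4 h. Ccr2 fell by 2.31 ± 0.43 on the log2 scale from early to late (edgeR, adjusted p = 0.000711), Cd34 fell by 3.16 ± 0.57 (adjusted p = 0.000559) and Alox5ap fell by 2.52 ± 0.39 (adjusted p = 0.000145). Cebpa, a factor of myeloid progenitors, had 98.98 CPM untreated and 39.2, 52.6, 2.68 and 2.79 CPM, and fell by 3.92 ± 0.80 (adjusted p = 0.00152). Ypel3 was lowest at 4 h, with 213 CPM untreated and 184, 180, 8.04 and 39.0 CPM. The actin gene Actb, often used as a reference, rose by 1.15 (adjusted p = 0.001), a call lost with column totals, and stood at 16440 CPM untreated and 44740 CPM at 6 h.

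Markers of the cell types in the culture were counted in the same test, in which 8.66% of all genes rose and 5.31% fell. Of 29 plasmacytoid markers 5 rose and 1 fell from early to late, or 2 and 0 without the 1 h library and 2 and 3 with column totals. The median log2 ratio at 6 h was −0.07, or −0.48 with column totals. Siglech stood at 350 CPM untreated and 336, 306, 257 and 251 CPM, a change of −0.34 ± 0.27 that was not called (edgeR, adjusted p = 0.442). Bst2 (tetherin), which is both a plasmacytoid marker and an interferon-stimulated gene, had 750 CPM and 787, 754, 2206 and 2444 CPM and rose by 1.59 (adjusted p = 0.00115). Cd7 had 221 CPM and 198, 179, 107 and 44.6 CPM, and fell by 1.30 ± 0.36 (adjusted p = 0.0181, lost without the 1 or the 6 h library). Tcf4, the factor that fixes the plasmacytoid fate, had 63.2 CPM and 104, 95.8, 134 and 114 CPM.

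Among 18 cDC1 markers 3 rose and 3 fell. With column totals 2 rose and 6 fell, and without the 1 h library 1 and 2. Cd8a had 10.53 CPM untreated and 6.27, 16.9, 80.4 and 167 CPM, and rose by 3.43 ± 0.58 on the log2 scale (edgeR, adjusted p = 0.000449). Xcr1 had 33.7 CPM and 39.2, 48.9, 50.9 and 39.0 CPM, with no such climb. Sept3 fell by 3.16 ± 0.71 (adjusted p = 0.0045). Of 19 cDC2 markers 1 rose and 7 fell, beside 5.31% of all genes that fell. Without the 1 h library 4 fell, without the 4 h library 3 and without the 6 h library 2. Csf1r, the receptor of a macrophage growth factor, had 436 CPM and 422, 445, 134 and 125 CPM, and fell by 1.74 ± 0.27 (adjusted p = 0.000145). Clec10a, a lectin, had 80.0 CPM and 45.5, 73.3, 10.7 and 2.79 CPM, and fell by 3.05 ± 0.74 (adjusted p = 0.00561, lost without the 6 h library). In the sorted cells this gene of the cDC2 list was highest in pDC, at 639.7 CPM beside 40.56 CPM in DN DC and 6.253 CPM in CD8+ DC. Tmem176b was the member that rose, with 640 CPM untreated and 594, 699, 1399 and 1385 CPM. Flt3, the receptor of the culture's own cytokine, had 282 CPM and 284, 297, 91.1 and 120 CPM, and fell by 1.46 ± 0.32 (adjusted p = 0.00279, lost without the 4 h library). Summed over all genes of a list, plasmacytoid markers stood at 6168, 6176, 5934, 11050 and 10700 CPM from untreated to 6 h. Irf7 and Bst2, which are in that list, held 819.2, 853.2, 1005, 4642 and 4653 CPM of these sums, and the other 33 genes 5349, 5323, 4929, 6406 and 6047 CPM. The cDC1 markers summed to 4568, 4575, 4367, 4519 and 3344 CPM, and the cDC2 markers to 5585, 5257, 5380, 5229 and 4835 CPM. On this scale all tested genes summed to 758100, 798100, 812400, 1101000 and 1021000 CPM. A list sum is thus not a share of the library, and these sums are to be read beside that rise. Of the defining cDC1 markers Itgae was at 0 counts at 6 h. The part of a changed cell make-up in the results was not tested.

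Genes that set apart dendritic cells sorted from spleen gave another view of the mixed culture. For each sorted population the 100 genes with the largest fold over the other 2 were taken from 7954 genes held by both tables. These had passed the filter on low counts over all 32 stimulation libraries, so a gene could enter through an LPS library in which it was high, but no LPS ratio was used to rank them. All genes tested gave 4.28% higher and 0.956% lower at 4 h and 3.67% and 1.04% at 6 h. Of the 100 sorted pDC genes 2 were at least 4-fold higher and 2 lower at 4 h, and 0 and 1 at 6 h, with medians of 0.01 and −0.07. The lowest of them at both hours was Clec10a, at −2.12 and −2.82 on the log2 scale. Of the sorted CD8+ DC genes 26 were higher and 1 lower at 4 h and 33 and 2 at 6 h, with medians of 0.82 and 1.01. Of the sorted DN DC genes 11 were higher and 1 lower at 4 h, and 13 and 4 at 6 h. Genes leading the CD8+ DC list at 4 h were Cxcl9, Cdkn1a, Rgs1, Gadd45b and Il15, and 10 of the 100 are also in the maturation list. The 11 cDC1 markers among the 100 gave 0 higher at either hour, 1 lower at 4 h and 2 at 6 h. With the members of the maturation, interferon-stimulated and chemokine lists left out, an alternative chosen after seeing the data, 19 and 24 of 89 CD8+ DC genes were higher, with medians of 0.49 and 0.52. The same step left 5.435% of the DN DC genes higher at 4 h in place of 11%.

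**Figure D4:**
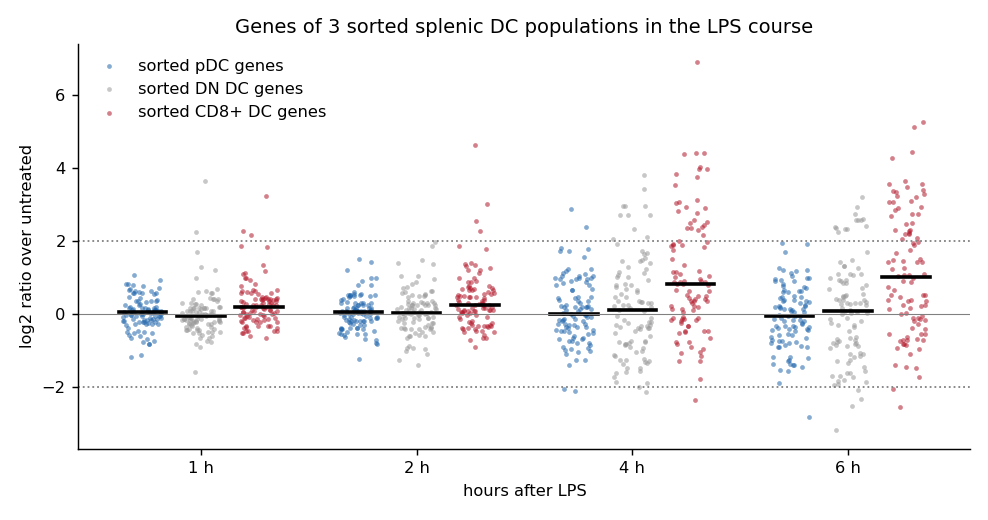
Log2 ratio over the untreated library at each hour of LPS for 100 genes (points) that set apart each dendritic cell population sorted from spleen, with medians as black bars and dotted lines at a 4-fold difference. The sorted pDC genes stayed centred near 0 at 4 and 6 h, and the sorted CD8+ DC genes had medians of 0.82 and 1.01.

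Against PAM in the same cells, nearly the whole interferon-stimulated list was higher after LPS at 4 and 6 h. In the 4 and 6 h libraries 393 genes were higher after LPS (4.88%) and 60 lower (0.745%), a comparison that leaves the untreated library out. Of the 64 interferon-stimulated genes 62 were higher and 0 lower, with a median log2 fold of 3.53. Isg15 averaged 5657 CPM late after LPS and 247.9 CPM after PAM, where the 4 libraries ran 39.96, 65.77, 172.6 and 323.3 CPM. Rsad2 averaged 1074 CPM against 21.14 CPM, and every PAM library of it lay below the 2 h library of LPS. Irf7 was higher after LPS by 4.69 ± 0.72 on the log2 scale (edgeR, adjusted p = 0.000144), Isg20, an exonuclease of viral RNA, by 6.33 ± 0.92 (adjusted p = 9.61e-05), Cxcl10 by 5.07 ± 0.91 (adjusted p = 0.000747) and Il27 by 5.53 ± 1.16 (adjusted p = 0.00338). Of the 23 MHC class I genes 13 were higher after LPS, of the chemokines 3, and of the 38 maturation genes 6, with 1 left without the 6 h library and 14 with the hour as a block. Ccl22 differed by 0.56 ± 0.56 (adjusted p = 0.675) and Cd40 by 1.25 (adjusted p = 0.385), and neither was called, though Cd40 was with the hour as a block. Ccl5 was higher after LPS by 3.48 ± 0.61 (adjusted p = 0.000576).

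Few named genes were lower after LPS than after PAM. Hmox1, which breaks down haem, averaged 20.5 CPM late after LPS and 123.6 CPM after PAM, lower by −2.58 ± 0.50 on the log2 scale (edgeR, adjusted p = 0.00157). Aqp9, a water and glycerol channel, averaged 2.73 and 30.3 CPM (−3.33 ± 0.85, adjusted p = 0.0169, lost without the 4 or the 6 h library). With column totals, which moved the median by −0.38, the late counts were 258 higher and 265 lower, with 58 of the 64 interferon-stimulated genes higher. With the hour as a block 94 genes were lower. Without the 4 h library they were 185 and 22, with 47 of the 64. In the 1 and 2 h libraries 0 genes were called higher (0%) or lower (0%) by edgeR and 0 by DESeq2 (with the hour as a block 1 was higher), while 190 had an unadjusted p below 0.05. There the 64 interferon-stimulated genes had a median of 1.24.

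The hour of the highest level could be compared with libraries that had no part in sorting the genes. Of the 28 genes highest at 1 h of LPS, 24 (85.71%) were highest at 1 h after CpG B, 17 (60.71%) after PAM and 15 (53.57%) in moDC after LPS, beside 28.27%, 27.91% and 26.01% of all genes. Of the genes highest at 4 h of LPS, 196 of 260 (75.38%) were also highest at 4 h after CpG B, beside 24.07% of all genes. The share was 126 of 259 (48.65%) in moDC and 42 of 221 (19%) after PAM, where 46.15% were highest at 6 h. With column totals the class highest at 4 h of LPS held 160 genes, for which these shares were not counted. Egr1 ran 333.0, 16.44, 5.95 and 10.96 CPM after PAM and 839.8, 7.612, 13.77 and 5.143 CPM after CpG B, again high at 1 h alone. Isg15 ran 54.24, 621.6, 4264 and 3910 CPM after CpG B, close in time to its course after LPS.

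**Figure D5:**
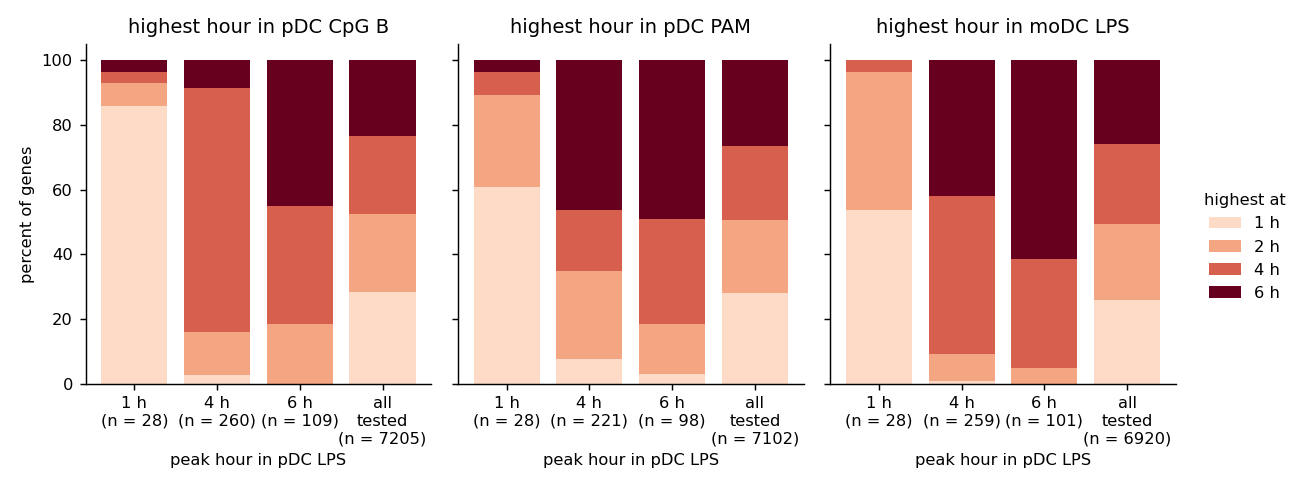
Percent of genes (stacked bars) highest at each hour after CpG B, PAM and LPS in moDC, for genes grouped by their hour of highest level after LPS in the Flt3L culture. Of the genes highest at 4 h, 75.38% peaked at 4 h after CpG B and 19% after PAM.

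Promoter letters differed between the genes sorted by hour. In windows of 250 bases before to 50 after the start, the IRF-type motif was found in 26.32% of 209 promoters of genes highest at 4 h, 8.14% of those highest at 6 h and 1 of 18 highest at 1 h (5.556%). All tested genes had it in 7.629% and all promoters in 8.574%. The kappa B motif was found in 5 of 18 genes highest at 1 h (27.78%), 10.05% at 4 h and 15.12% at 6 h, beside 5.371% of tested genes and 4.348% of all promoters. AP-1 was found in 11.11%, 13.88% and 8.14% in the same order, beside 5.122% of tested genes and 7.933% of all promoters. The CArG box, bound by serum response factor, was found in 5.556%, 2.392% and 1.163%, beside 1.401% and 1.573%. Both strands were searched, matches of different motifs may overlap, and the shares are a description. They were not counted for the 160 genes that were highest at 4 h with column totals.

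The late change was also compared between the Flt3L culture and GM-CSF-grown moDC. In the difference of the change from early to late, 6 genes were called higher in pDC (0.0745%) and 2 lower (0.0248%), and against the untreated libraries 1 was higher (0.0124%) and 3 lower (0.0372%). At an unadjusted p below 0.05 there were 741 and 624 genes, DESeq2 called 14 higher and 4 lower in the first comparison, and the small counts do not show that the cultures changed alike. With the hour as a block the first comparison gave 30 higher and 8 lower and the second 5 and 3. Irf8, the factor that plasmacytoid cells and cDC1 need, stood at 1573 CPM untreated and 1567, 1251, 1241 and 914 CPM in the Flt3L culture. In moDC it stood at 154.6 CPM untreated and 195.0, 276.4, 523.9 and 683.3 CPM. Its late levels lay below the untreated one in the first and above it in the second, a difference of −2.51 ± 0.47 on the log2 scale (edgeR, adjusted p = 0.0367), lost without the 4 or the 6 h library of the Flt3L culture. This test rests on 1 untreated library per culture, each assumed to vary like the other libraries. Of the 64 interferon-stimulated genes 0 were called in either comparison by edgeR, and their median difference from early to late was −0.24. By the same measure the 38 maturation genes had a median of 0.86, with 36 above 0 and 1 called, and the 17 cholesterol synthesis genes 1.501, with 17 above 0 and 0 called, beside 0.02 over all genes. The late libraries against the untreated one of the Flt3L culture gave 677 genes higher (8.4%) and 435 lower (5.4%), or 422 and 1078 with column totals, which moved the median by −0.47.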

How the data were processed

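RNA was sequenced from 3′ ends, per the labels' protocols. Values of the stimulation libraries are raw read counts by gene symbol, which the authors deposited. The sorted populations table holds expected counts as deposited by the authors (15.2% of values not whole), here rounded to whole counts and turned into CPM. Per the submitters' processing notes, TopHat and mm9 were used. How reads were counted, and whether by strand, is not given in the sources used here. Of 21637 symbols 19522 matched current names and 1935 older ones. A row without a gene name (0.2277% to 0.409% of the 5 libraries) was left out, and 7 columns of per-sample values were not used.

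Genes that reached 20 CPM in 4 or more libraries (8056) were fitted in edgeR 4.0.16 (R 4.3.3, quasi-likelihood, TMM) on all 32 libraries with 1 term per cell type, ligand and phase (1 and 2 h early, 4 and 6 h late, untreated alone), leaving 14 residual degrees of freedom. Calls needed a Benjamini-Hochberg adjusted p below 0.05 over all 8056 genes and a 2-fold change, two-sided. DESeq2 1.42.0 was an alternative, as was a fit with the hour as a block, chosen after seeing the data. Tested on simulated data for late over early with 8056 genes, the fit called 94 of 100 genes changed 4-fold, 29 of 100 changed 2-fold and 7 unchanged genes. Hourly ratios add 10 CPM to both sides. No pair of libraries held identical counts.

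The members and the 34 gene lists were chosen with earlier results of these data known. Named genes are the largest 10 calls per test and direction, the 10 highest and 5 lowest per hour that reach 100 CPM, and from each list up to 6 members with the largest ratio and the member most against its list, with fixed genes such as Tlr4 and Tnf.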

Additional observations from a re-analysis of the deposited data

Results flagged for a closer look

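The change after LPS differed between the Flt3L culture and moDC, by the test of the difference itself, for 12 results. For the change from 1 and 2 h to 4 and 6 h the differences, pDC minus moDC on the log2 scale, were 4.85 for Cdc42bpg, 2.64 for the complement gene C3, 2.57 for Socs2, 2.42 for Stom, 1.96 for Anxa4, 1.70 for Tmem176b, −2.50 for Slco3a1 and −2.0 for Rgs10 (edgeR, adjusted p from 0.0283 to 0.0495). For the change from untreated to 4 and 6 h they were 3.73 for Eepd1, −6.89 for Lpcat4, −4.59 for Sema4c and −2.51 for Irf8 (adjusted p from 0.0262 to 0.0367).

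C3 stood at 27.4 CPM untreated and 32.9, 43.2, 327 and 334 CPM in the Flt3L culture, and at 773 CPM untreated and 714, 832, 1107 and 1039 CPM in moDC. Tmem176b went from 594 and 699 CPM early to 1399 and 1385 CPM late in the Flt3L culture, and from 302 and 249 CPM to 166 and 199 CPM in moDC. Cdc42bpg and Lpcat4, with the largest differences, rest on levels under 3 counts. Cdc42bpg went from 1.57 and 1.88 CPM early to 69.7 and 27.9 CPM late in the Flt3L culture. Lpcat4 went there from 54.8 CPM untreated to 2.68 and 2.79 CPM late, and in moDC from 2.38 CPM untreated to 18.5 and 16.0 CPM. The sizes of these differences are thus uncertain. Of 9 alternative fits, 7 called the differences of Slco3a1, Sema4c and Irf8, 6 those of Eepd1 and Lpcat4, 5 those of Cdc42bpg, C3, Socs2, Anxa4, Tmem176b and Rgs10, and 4 that of Stom. Each was lost in at least 2 of the fits that left out a library of the course.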

How the results depend on the processing

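Each condition is 1 library, so replicate numbers pair no samples, but libraries share hours. With the hour as a block (centred terms for 1 against 2 h and for 4 against 6 h, chosen after seeing the data) the counts were 58 higher (early over untreated), 94 lower (LPS over PAM, late), 1 higher (LPS over PAM, early), 30 and 8 (interaction, late minus early) and 5 higher (late minus untreated), and its other counts stayed within 1.5 times. No named result reversed under the alternatives run. Among single genes 2998 values stayed the same, 188 lost a call, 67 gained a call and 9 hourly values moved. For a test the same means the same side of the threshold, and for an hourly value a shift within its counting error. Among counts 152 stayed within 1.5 times and 94 did not.

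With column totals in place of TMM the counts higher and lower were 432 and 976 (late over early), 422 and 1078 (late over untreated), 258 and 265 (late LPS over PAM), 3 and 4 (interaction, late minus early), 19 higher (early over untreated) and 2 higher (interaction, late minus untreated). Genes lower at 1, 4 and 6 h numbered 1, 221 and 185, those lower at any hour 321 and those highest at 4 h 160. DESeq2 gave 258 lower (late over early), 219 lower (late over untreated), 39 lower (LPS over PAM), 40 higher (early over untreated), 14 and 4 (interaction, late minus early) and 0 higher (late minus untreated). With no filter the counts were 104 higher (early over untreated), 27 and 3 (LPS over PAM, early), 66 and 18 and then 28 and 12 (the interactions). With a stricter filter (50 CPM, reached in 2 libraries), 91 genes were lower after LPS than PAM and 4 lower in the first interaction.

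Without each library in turn the ranges, higher and lower, were 240 to 564 and 157 to 330 (late over early), 5 to 16 higher (early over untreated), 436 to 676 and 218 to 418 (late over untreated), 185 to 401 and 22 to 55 (LPS over PAM), 0 to 2 and 0 to 2, and 0 to 1 and 0 to 3 (the interactions). The lowest counts of late over early came without the 1 h library, those of late over untreated and of LPS over PAM without the 4 h library.

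Hourly counts followed the fold and the added CPM. At 2-fold the genes higher and lower were 173 and 67 at 1 h, 302 and 120 at 2 h, 1095 and 871 at 4 h and 971 and 848 at 6 h, and at 8-fold 18, 18, 143 and 117 were higher and 5 and 6 lower at 4 and 6 h. With 2 CPM added, 90 and 120 were higher at 1 and 2 h and 12, 19, 321 and 302 lower. With 25 CPM added, 32 were higher at 1 h and 19 and 15 lower at 4 and 6 h. The genes highest at 1 h numbered 75 at 2-fold, 44 with 2 CPM and 18 with 25 CPM, those highest at 6 h 470, 181 and 71, those lower at any hour 1322, 529 and 26, and those highest at 4 h 778 at 2-fold. Leaving out listed genes, chosen after seeing the data, gave 5.435% of DN DC genes higher at 4 h.

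Depth limits low genes: 1 count was worth 1.886 to 2.649 CPM, so levels such as those of Tlr4, Ifnb1 and Il10 rest on a few counts. The same holds for the early levels of Cdc42bpg and the late levels of Lpcat4 in the Flt3L culture.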
